A study of Mus musculus with 20 samples.

Results

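Immediate early genes are switched on within minutes of synaptic activity, without the need for new protein, and in the striatum dopamine acting on D1 receptors and glutamate from the cortex are their best known triggers. The present account covers 10 of them, out of the 39179 genes in the count tables, which are the classic transcriptional readout of a psychostimulant such as amphetamine. They were chosen by name: Fos, Fosb, Fosl2, Junb, Egr1, Egr2, Arc, Nr4a1, Npas4 and Ier2. Their RNA was measured 2 hours after the injection, when the first wave of induction of most of these genes is usually declining. All 10 passed the minimum of over 1 CPM (a gene's counts relative to the library total, on a fixed scale) in 3 or more mice, the filter that left 14792 genes to be tested.

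The mice were adult males of generation 17 from a High-Active line, bred for distance traveled in the home cage, and from an unselected Control line kept beside it. Both lines descended from a cross of 8 inbred strains. At about 6.5 months of age each mouse was given d-amphetamine sulfate at 0.25 mg/kg or saline into the peritoneum, 2 hours into the dark phase, and went back to its cage. The dorsal and ventral striatum of both sides was cut from a section about 1.7 mm thick 2 hours later. This gave 5 mice in each of 4 groups, named by line and treatment. Each line was 1 breeding population, so selection and drift cannot be told apart in a difference between the lines. Of the 20 mice, 13 belonged to 6 families in which at least 1 brother received amphetamine and at least 1 saline, so that these mice were not independent of one another.

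Most of the 10 genes encode transcription factors. Fos, Fosb, Fosl2 and Junb encode subunits of AP-1, a dimer of a Fos and a Jun protein that carries a brief stimulus into slower changes of gene expression. Egr1 and Egr2 encode zinc finger factors, Nr4a1 (Nur77) an orphan nuclear receptor closely tied to dopamine signaling, and Npas4 a neuronal factor induced by calcium entry. Arc encodes a protein of dendrites that removes AMPA receptors from synapses, and Ier2 a small nuclear protein of less settled function. Many of their promoters are held ready by CREB at cAMP response elements and by serum response factor at serum response elements, and kinases downstream of calcium and cAMP switch both on.

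Upstream sequences are shown for the 4 members with a window that lies outside every annotated exon. No relation of these sequences to the members' levels was tested. Each is the 250 bases before the transcription start, in the strand of the gene, taken from RefSeq on GRCm38.p6. Capitals mark the core of the cAMP response element (TGACG or, on the other strand, CGTCA), the serum response element, the EGR site GCGGGGGCG on either strand, and the TATA box TATAAA.
Fos, chr12:85473640-85473889, plus strand: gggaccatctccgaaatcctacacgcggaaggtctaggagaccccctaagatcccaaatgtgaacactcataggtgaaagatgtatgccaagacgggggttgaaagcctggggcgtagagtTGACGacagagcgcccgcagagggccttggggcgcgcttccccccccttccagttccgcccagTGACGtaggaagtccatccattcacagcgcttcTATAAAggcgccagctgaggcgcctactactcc
Junb, chr8:84978749-84978998, minus strand: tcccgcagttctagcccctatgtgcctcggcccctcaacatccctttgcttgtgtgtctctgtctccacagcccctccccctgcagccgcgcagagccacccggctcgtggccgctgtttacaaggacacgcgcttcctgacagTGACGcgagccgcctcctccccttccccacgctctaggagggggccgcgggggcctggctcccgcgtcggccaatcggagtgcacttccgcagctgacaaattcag
Egr2, the third of 5 starts, chr10:67537619-67537868, plus strand: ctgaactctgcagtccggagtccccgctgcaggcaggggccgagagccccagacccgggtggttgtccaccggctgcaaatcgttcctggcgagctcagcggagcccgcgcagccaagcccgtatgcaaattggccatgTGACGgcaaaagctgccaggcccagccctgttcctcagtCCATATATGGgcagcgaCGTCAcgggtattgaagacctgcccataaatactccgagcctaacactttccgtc
Nr4a1, chr15:101266596-101266845, plus strand: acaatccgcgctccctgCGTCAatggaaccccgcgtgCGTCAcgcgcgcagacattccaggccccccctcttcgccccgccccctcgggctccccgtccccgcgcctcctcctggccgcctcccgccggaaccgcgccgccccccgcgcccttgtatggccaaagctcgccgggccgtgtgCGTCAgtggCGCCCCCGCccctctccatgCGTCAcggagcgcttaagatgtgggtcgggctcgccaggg
Of the 7 members with an entry in the promoter table, 6 held TGACG in at least 1 promoter, and 17.8% of the 32851 promoters of the same length held it. The exception was Fosl2. The member count is per gene, with 5 windows for Egr2, while the share is per promoter, so they are not strictly alike. All 250 bases of the Fosl2 and Npas4 windows lay within annotated exons of the same gene, so their matches are not in purely upstream sequence. The full palindrome TGACGTCA, which contains this core, was found in 1.55% of all promoters and in 0 of the 7 members. The serum response element occurred in 1.47% of all promoters and, among the members, in Egr2 alone. The EGR site stood in the windows of Fosb, Fosl2 and Nr4a1, against 2.57% of all promoters. TATAAA, present in 12.4% of all promoters, was found in that of Fos. The AP-1 site TGANTCA was present in 6.75% of all promoters and in 0 of the 7. These matches are of letters only, and a window without a match says nothing about a factor's binding.

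Gene counts summed to 32388971 in the shallowest and 53710713 in the deepest library. The members took between 51 reads in a mouse, for Ier2, and 16834, for Egr1, so that counting error was largest for Ier2. The striatal origin of the tissue was plain, with all 14 markers of striatal projection neurons detected and a summed level of 4787 to 7889 CPM per mouse. Markers of cortical excitatory neurons were present in every mouse at 492.4 to 1750 CPM summed over 14 genes. In a whole piece of tissue, fewer cells of a type and less RNA per cell cannot be told apart. Junb overlaps Prdx2 on the opposite strand, and the sources used here do not state the strand setting of the counting. Counts on Fosb cannot separate full-length FosB from the short, stable form called ΔFosB.

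Per kilobase of exon, Egr1 was the most abundant member at 51.9 RPKM ± 15.52 (SD, n = 20 mice). RPKM is the CPM divided by the gene's exon length in kilobases. Arc followed with 41.53 RPKM ± 21.74, then Nr4a1 with 22.2 ± 10.04 and Junb with 21.71 ± 7.438. The others lay far lower. Fos averaged 5.687 RPKM ± 2.89, Npas4 4.509 ± 1.716, Fosl2 3.815 ± 1.583, Egr2 3.144 ± 1.927, Fosb 2.757 ± 1.139 and Ier2 1.655 ± 0.5481 (SD, n = 20). In this order the step from Junb down to Fos was the only one larger than the larger SD of the 2 neighbours, and every other neighbour pair was within its spread.

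These levels varied widely between mice treated alike. The SD of log2 CPM within the groups was 0.3754 for Ier2 and 0.4533 to 0.8264 for the other members, against a median of 0.1541 over all genes tested. Egr2 spread most, and its SD was larger than that of 96.8% of the tested genes. Even for Ier2 the share was 85.66%. The highest of the 20 mice exceeded the lowest 9.171-fold for Egr2, 7.266-fold for Arc and 5.656-fold for Fos, and 2.875-fold for Egr1.

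**Figure D1:**
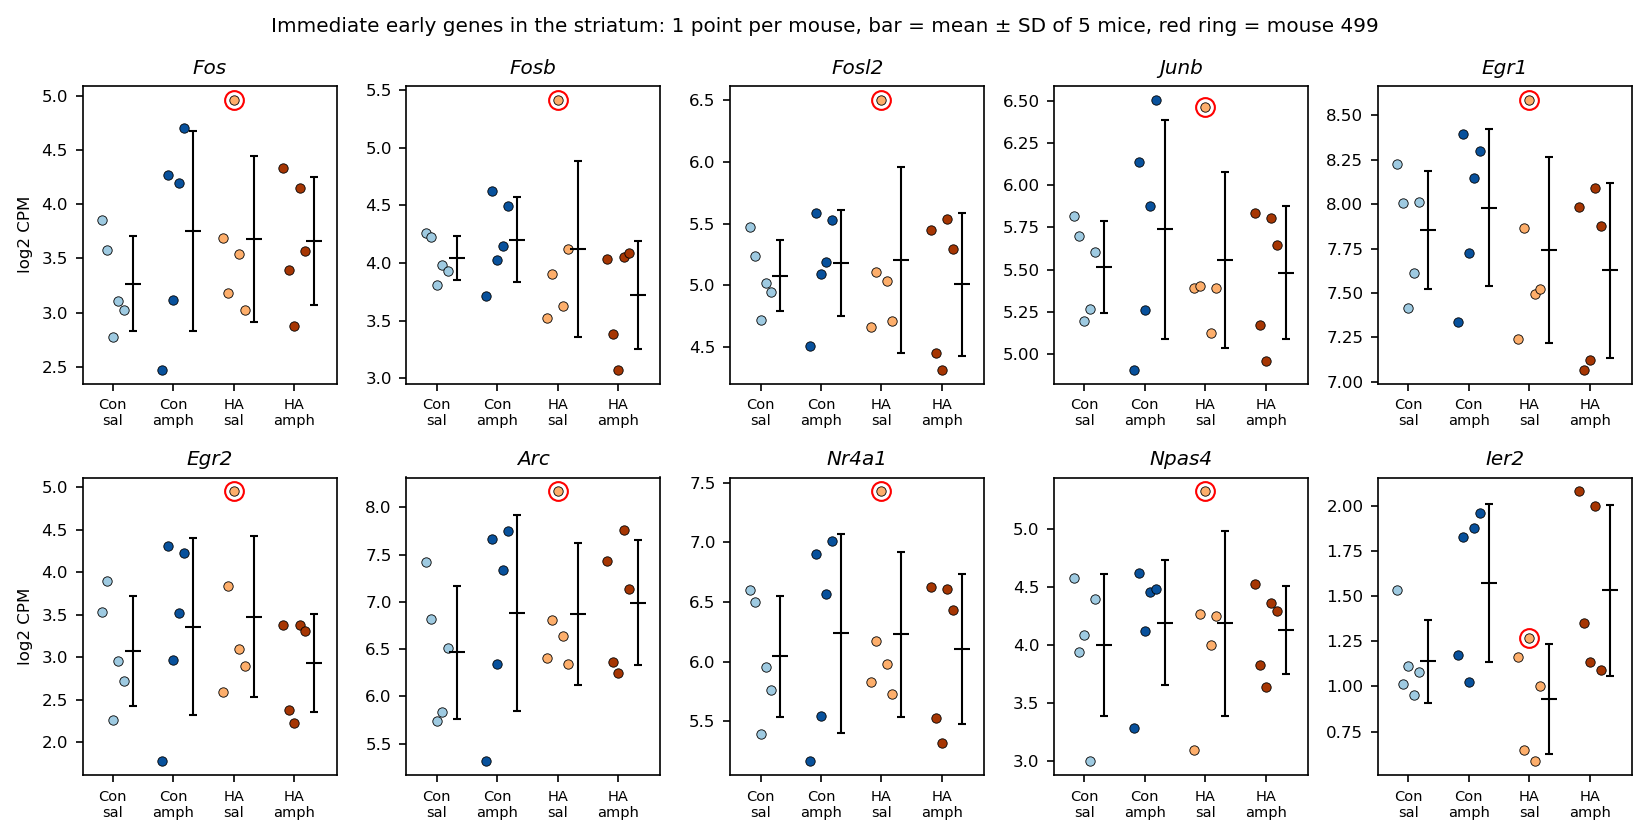
Level of each gene as log2 CPM (vertical axis) in the 4 groups (Con, Control; HA, High-Active; sal, saline; amph, amphetamine), 1 point per mouse, with the mean ± SD of 5 mice as a bar. In 9 of the 10 panels the High-Active saline mouse 499, ringed in red, is the highest or second highest of all 20 mice, and Ier2 is the exception.

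Among the AP-1 genes, Fos (ENSMUSG00000021250, GRCm38 chromosome 12 from 85473890 to 85477273) is the standard marker of recently active neurons. In Control saline mice its level was 6.796, 8.068, 8.56, 11.9 and 14.42 CPM. In Control amphetamine mice it was 5.505, 8.629, 18.31, 19.16 and 26.03 CPM. Of the 5 treated Control mice, 3 (407, 454 and 457) thus lay above every untreated one, and mouse 369 lay below all of them.
In High-Active saline mice Fos stood at 8.104, 9.029, 11.61, 12.88 and 31.14 CPM. In High-Active amphetamine mice the values were 7.283, 10.46, 11.85, 17.69 and 20.12 CPM. Here the groups overlapped almost fully, and the highest mouse of all, number 499, had received saline. The group means were 9.948 CPM ± 3.13 after saline and 15.53 ± 8.357 after amphetamine in Control mice. In the High-Active line they were 14.55 ± 9.468 and 13.48 ± 5.291 (SD, n = 5).

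Fosb (ENSMUSG00000003545, chromosome 7 from 19302696 to 19310051, minus strand), whose short protein form accumulates in the striatum on repeated drug exposure, was steadier in Control mice. It ranged from 13.97 to 19.08 CPM after saline and from 13.07 to 24.57 CPM after amphetamine. In High-Active saline mice 4 values lay between 11.46 and 17.34 CPM and mouse 499 reached 42.69. In High-Active amphetamine mice Fosb stood at 8.365, 10.4, 16.3, 16.54 and 16.92 CPM, so that mice 487 and 415 lay below the saline range.
Fosl2 (ENSMUSG00000029135, chromosome 5 from 32135801 to 32157842), which encodes the Fos relative Fra-2, showed the same outline. Its range was 26.27 to 44.31 CPM in Control saline, 22.77 to 47.84 in Control amphetamine, 25.33 to 90.71 in High-Active saline and 19.85 to 46.42 in High-Active amphetamine mice. Without mouse 499 the High-Active saline mice reached no more than 34.37 CPM. Junb (ENSMUSG00000052837, chromosome 8 from 84974484 to 84978718, minus strand), the AP-1 partner of the Fos proteins, had its highest value, 90.82 CPM, in the Control amphetamine mouse 457. Mouse 499 followed with 88.17 CPM, against 34.88 to 42.28 CPM in the other 4 High-Active saline mice.

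Egr1 (ENSMUSG00000038418, chromosome 18 from 34859823 to 34864984), also known as Zif268, is expressed in the striatum already at rest. Its group means were 236.1 CPM ± 52.06 in Control saline, 261.4 ± 73.27 in Control amphetamine, 226.6 ± 93.33 in High-Active saline and 206.6 ± 65.38 in High-Active amphetamine mice (SD, n = 5). The 4 ranges all overlapped, with the lowest value, 134 CPM, in mouse 415 and the highest, 385.1 CPM, in mouse 499.
Egr2 (ENSMUSG00000037868, chromosome 10 from 67535475 to 67542188), known also for its part in myelination by Schwann cells, was the most variable member. In Control saline mice it stood at 4.764, 6.527, 7.695, 11.49 and 14.87 CPM, and in Control amphetamine mice at 3.373, 7.766, 11.46, 18.63 and 19.74 CPM. In High-Active saline mice it stood at 5.957, 7.423, 8.536, 14.2 and 30.93 CPM. High-Active amphetamine mice had 4.633, 5.167, 9.853, 10.33 and 10.35 CPM. Of the untreated High-Active mice, 483 and 499 lay above every treated one, and the other 3 lay within the treated range.

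Arc (ENSMUSG00000022602, chromosome 15 from 74669083 to 74672570, minus strand) is the one member that acts at the synapse itself. Its Control saline values were 53.59, 56.88, 90.9, 112.7 and 171.6 CPM. Control amphetamine mice had 39.68, 81.29, 161.2, 202.4 and 214.4 CPM, so that mouse 369 was the lowest and 407 and 457 were the highest of the 10 Control mice. In High-Active saline mice Arc stood at 81.06, 84.64, 99.56, 111.8 and 288.3 CPM, and in High-Active amphetamine mice at 75.9, 82.6, 140.9, 173.1 and 216.9 CPM. Apart from mouse 499, each untreated High-Active mouse lay below 3 of the 5 treated ones.

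Nr4a1 (ENSMUSG00000023034, chromosome 15 from 101254269 to 101274795) ranged from 42.05 to 97.05 CPM in Control saline and from 35.78 to 128.6 in Control amphetamine mice. It ranged from 52.91 to 172.5 CPM in High-Active saline and from 39.84 to 98.51 in High-Active amphetamine mice, and the 4 High-Active saline mice other than 499 did not exceed 72.31 CPM. Npas4 (ENSMUSG00000045903, chromosome 19 from 4984355 to 4990316, minus strand) had nearly equal group means, 17 CPM ± 6.087 in Control saline, 19.14 ± 5.907 in Control amphetamine, 20.54 ± 11.78 in High-Active saline and 17.91 ± 4.465 in High-Active amphetamine mice (SD, n = 5).

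Ier2 (ENSMUSG00000053560, chromosome 8 from 84661331 to 84662852, minus strand) was the scarcest member and had a pattern of its own. Control saline mice had 1.885, 1.974, 2.062, 2.117 and 2.847 CPM. Control amphetamine mice had 1.985, 2.207, 3.501, 3.622 and 3.845 CPM, with mice 407, 454 and 457 above every untreated mouse and mice 409 and 369 within their range. High-Active saline mice had 1.451, 1.517, 1.952, 2.189 and 2.356 CPM, and High-Active amphetamine mice 2.08, 2.145, 2.506, 3.943 and 4.182 CPM. The same split appeared there, with mice 415, 192 and 872 above every untreated mouse. Mouse 499, first in 8 other members, ranked 8 of 20 for Ier2.

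Amphetamine was compared with saline to ask whether the immediate early genes responded to the drug. The comparison used edgeR's quasi-likelihood test on all 14792 genes, with p adjusted by the Benjamini-Hochberg method over all of them and called under 0.1. Over both lines, 0 of the 10 members passed, and so did 0% of all genes. At an unadjusted p under 0.05 there was 1 of 10 members, higher after amphetamine, against 12.5% of all genes (7.06% higher and 5.4% lower). That member was Ier2, which was 1.478-fold higher after amphetamine (log2 change 0.56 ± 0.17 SE, 95% interval of the fold 1.16 to 1.88, adjusted p = 0.206 by edgeR). With DESeq2 the adjusted p of Ier2 was 0.0714, and with edgeR's likelihood-ratio test on robust dispersions it was 0.0743. Either would pass the threshold, so the call of Ier2 turned on the choice of test. The paper describes an edgeR fit with robust dispersions in an earlier release. The numbers of genes called by the likelihood-ratio fit used here, given further on, differ from those the paper reports. The call of Ier2 by this fit is therefore not a result of the paper. When 1 mouse at a time was left out, the log2 change of Ier2 by the quasi-likelihood test stayed between 0.49 and 0.63. With the summed level of cortical neuron markers as a covariate, described further on, it was 0.26 (adjusted p = 0.994 by edgeR). No member had treated and untreated mice that did not overlap, in either line, as was seen in 1.11% of all genes in Control and 0.892% in High-Active mice.

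For the other 9 members the fitted log2 change over both lines ran from -0.17 for Fosb to 0.29 for Arc. It was above 0 in 6 of 10 members, against 47% of all genes, and its median was 0.033 over the members and -0.0067 over all genes tested. Their intervals were wide. For Fos the 95% interval of the fold change was 0.791 to 1.83, for Arc 0.764 to 1.95 and for Egr1 0.767 to 1.32. Changes in either direction within these intervals are compatible with the values of these mice.

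Within Control mice the fitted change was above 0 in 10 of 10 members, against 49% of all genes. The log2 changes there were 0.65 ± 0.41 (SE) for Fos, 0.53 ± 0.46 for Arc, 0.48 ± 0.23 for Ier2 and 0.43 ± 0.48 for Egr2, and 0.13 to 0.31 for the others. No member was called in Control mice, where 0% of all genes were called and 6.35% had an unadjusted p under 0.05. The lowest adjusted p of a member was 0.784, for Ier2 by edgeR. Since the members move together across mice, these 10 values are not separate observations of a direction.
Within High-Active mice 2 of 10 members had a fitted change above 0, Ier2 with 0.65 ± 0.24 (SE) and Arc with 0.051 ± 0.46, against 47.7% of all genes. Egr2 stood at -0.73 ± 0.48 and Fosb at -0.53 ± 0.30. No member was called there either, with 0% of all genes called and 8.43% at an unadjusted p under 0.05, a threshold that Ier2 passed (adjusted p = 0.423 by edgeR). Under the likelihood-ratio test on robust dispersions, 7 of 10 members had a fitted change above 0 in High-Active mice.

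The High-Active values depended on 1 mouse. Without the saline mouse 499, 8 of 10 members had a fitted change above 0 in High-Active mice, among them Arc at 0.55, Fos at 0.38, Nr4a1 at 0.27, Fosl2 at 0.21, Npas4 at 0.20, Junb at 0.20 and Egr1 at 0.15, with Ier2 at 0.74. Fosb then stood at -0.028 and Egr2 at -0.16. Over both lines, the fitted change without this mouse was above 0 in 10 of 10 members, from 0.080 for Fosb to 0.61 for Ier2, and the lowest adjusted p of a member was 0.313 by edgeR. This saline mouse was singled out for its high level in these same members, so leaving it out raises the fitted changes by construction. Over all fits with 1 mouse left out, 1 to 8 of 10 members were above 0 in High-Active mice and 3 to 10 over both lines. The share of all genes above 0 was not computed for these fits. The labels carry no remark on mouse 499. It traveled 46.41 label units after the injection, the second shortest distance of the 10 High-Active mice, and its brothers 871 and 872 had received saline and amphetamine.

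**Figure D2:**
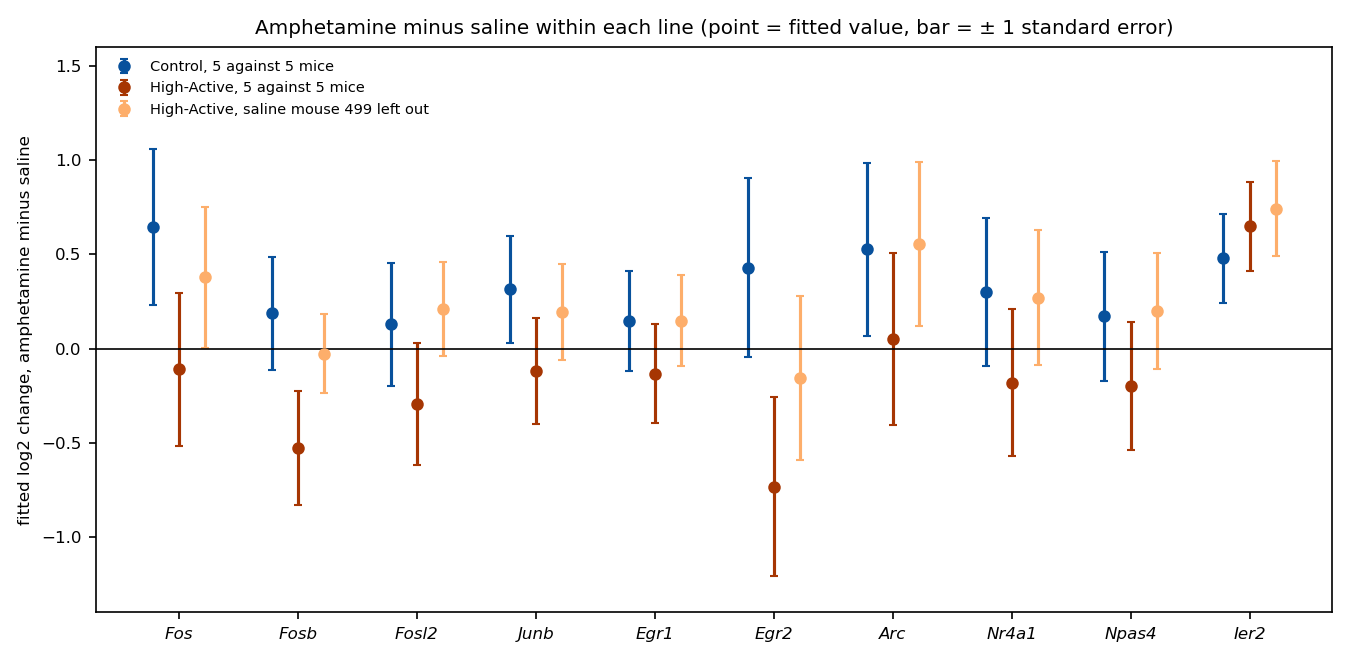
Fitted log2 change (vertical axis) of each gene from saline to amphetamine, with ± 1 standard error as a bar, in Control mice (blue), High-Active mice (dark orange) and High-Active mice with saline mouse 499 left out (light orange). Leaving out that mouse brings Arc from 0.051 to 0.55 and Fos from -0.11 to 0.38, and Ier2 is above 0 in all 3 fits.

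The lines were then compared in their response, by the interaction of line and treatment, and in their level. The interaction was below 0 in 9 of 10 members, from -1.16 ± 0.67 (SE) for Egr2 to -0.28 ± 0.37 for Egr1, and stood at 0.17 ± 0.33 for Ier2. No member was called, at 0% of all genes called and 2.97% at an unadjusted p under 0.05, and no member reached the latter. The interaction was above 0 in 1 of 10 members, against 50.5% of all genes, and in 5 of 10 without mouse 499, where Fosl2, Egr1, Arc, Npas4 and Ier2 were at or above 0 and Egr2 stood at -0.59.
Averaged over treatments, 14.5% of all genes were called between the lines, and 26.1% had an unadjusted p under 0.05, with 0 of 10 members in either count. The fitted difference was above 0 in High-Active mice in 5 of 10 members, against 49.7% of all genes. The largest difference was that of Arc, 0.22 ± 0.32 (SE) on the log2 scale, higher in High-Active mice, and Egr1 stood at -0.20 ± 0.19. Without mouse 499 the fitted difference was below 0 in 10 of 10 members, with Fosb at -0.35 (adjusted p = 0.148 by edgeR). Leaving out a High-Active mouse chosen for its high levels lowers this difference by construction. Over all fits with 1 mouse left out, 0 to 7 of 10 members were above 0 for the line difference and 1 to 5 for the interaction.

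What the members shared was their order over the mice. After the mean of each group was subtracted, the 36 pairs of members without Ier2 had a Pearson r of 0.649 to 0.956 over the 20 mice, with a median of 0.894. Spearman's rho ran from 0.69 to 0.952. The p of these r values was 1e-05 to 0.00567 (permutation test within groups, two-sided, 100000 resamples, where 1e-05 is the smallest it can give), among 45 pairs computed. Set against each member's correlations with all other tested genes, 32 of the 36 pairs had an adjusted p under 0.1. By that measure the share of all genes correlated with a member was 0.128% for Fos, 0.859% for Fosb, 1.18% for Fosl2, 0.23% for Junb, 2.76% for Egr1, 1.25% for Egr2, 1.02% for Arc, 0.622% for Nr4a1 and 2% for Npas4. The median r of a member with all other genes lay between -0.014 and 0.0048.
Leaving out the 2 mice farthest from the median of the first gene of a pair gave r of 0.43 to 0.939, and leaving out mouse 499 gave 0.546 to 0.947. One component held 84.5% of the members' variance within groups, and 81.9% without mouse 499. The group means were not recomputed when mice were left out, so the mice kept in a group retain a shared offset. The values without mouse 499 are therefore not free of its influence. Brothers and group means are shared by these points, and all values of a mouse share 1 library.
The 9 pairs with Ier2 were looser. Their r was 0.493 to 0.786 with a median of 0.609, and rho was 0.525 to 0.773. The permutation p of r was 0.00047 to 0.0339, and the adjusted p over all tested genes was 0.418 to 0.606, where 0% of all genes passed for Ier2.

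The mice ranked alike from gene to gene. Mouse 499 was the highest of 20 in 8 of the 9 members other than Ier2, and second in Junb. Mouse 369, a Control amphetamine mouse, was the lowest in 5 of these 9 and never above rank 16 in them, while 2 others of its group, 407 and 457, were between rank 1 and rank 5 in all 10 members. In the High-Active amphetamine group mouse 487 lay between rank 17 and rank 20 in the 9. Mouse 905, which traveled 519.2 label units after amphetamine, more than any other mouse, held ranks 7 to 10 in them.

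**Figure D3:**
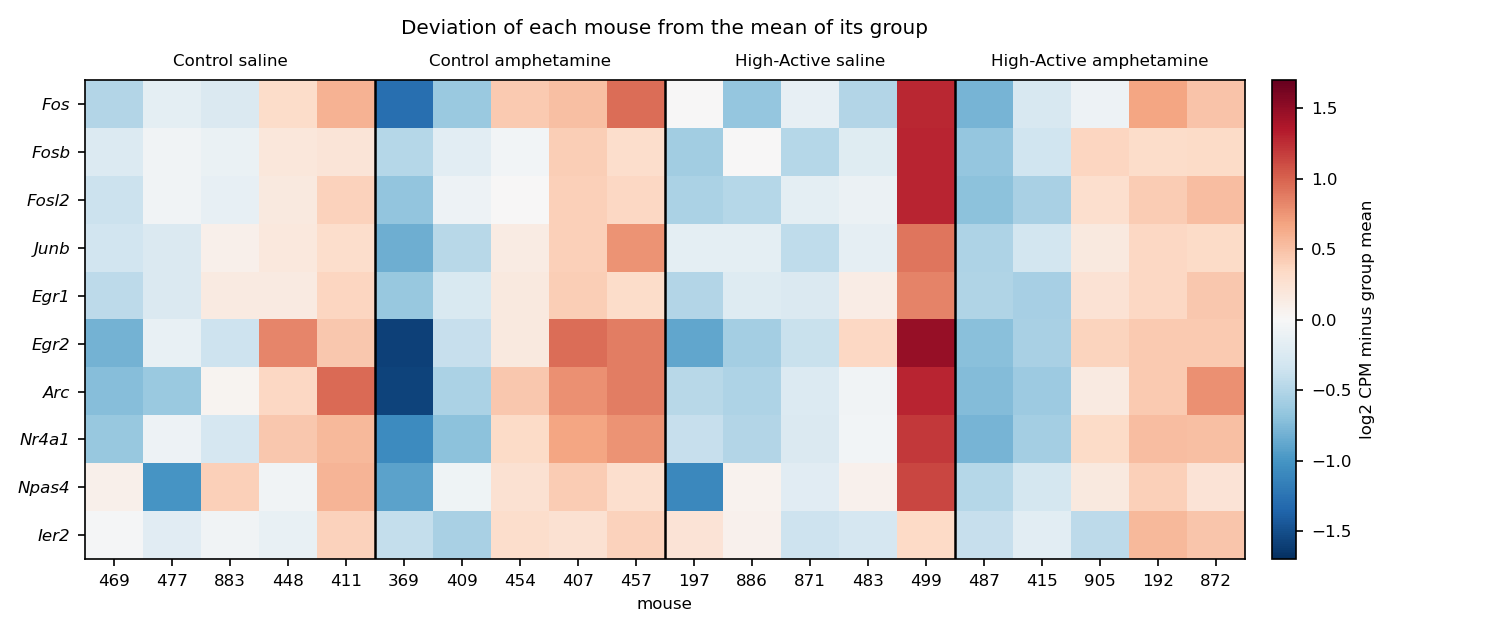
Deviation of log2 CPM from the group mean (colour, red above and blue below) for the 10 genes (rows) in the 20 mice (columns, by group and sorted by the mean of 9 genes). Columns are of nearly 1 colour from Fos to Npas4, as for mice 369 (blue) and 499 (red), and the row of Ier2 is paler.

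Among all other genes tested, the 10 whose pattern over the 20 mice was closest to the mean of the members included 4 from the list of other rapid early genes, Egr4, Nr4a3, Dusp1 and Arl4d. With the group means subtracted, Egr4 had r = 0.944 and Nr4a3 r = 0.937, both relatives of members. Dusp14 (r = 0.892), Dusp1 (r = 0.879) and Dusp6 (r = 0.87) encode dual-specificity phosphatases. The remaining 5 were 1700016P03Rik (0.88), Gpr3 (0.878), Midn (0.861), Stk40 (0.854) and Arl4d (0.844). No test was run on this ranking. Npas4, a member itself, had r = 0.823 to the same mean, and Ier2 0.725.

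The relation to movement was examined with the distance traveled after the injection, in label units because the labels name none. A slope on log2 distance, fitted within the 4 groups, was above 0 in 9 of 10 members, against 49.5% of all genes. Slopes above 0 were also common in lists described further on, in 20 of 20 delayed activity genes and 22 of 29 upstream factors. They were found in 12 of 14 striatal and 12 of 14 cortical markers, 18 of 29 other rapid early genes and 0 of 10 oligodendrocyte markers. The members move together across mice, so their signs are not separate observations. The slope was called in 0 of 10 members and 0% of all genes, with 7.3% of all genes and no member at an unadjusted p under 0.05. Egr2 had the steepest slope, 0.26 ± 0.22 (SE) on the log2 scale for each doubling of the distance, and Ier2 alone was negative at -0.057 ± 0.12. Without mouse 499 the slopes of Fosb, 0.20, and Fosl2, 0.24, had an unadjusted p under 0.05 and an adjusted p of 0.532 each by edgeR.

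Within each line, the level of each member was also correlated with log2 distance over 10 mice, without pooling the lines, whose distances differ. In Control mice r was positive in all 10 members, from 0.218 for Ier2 to 0.586 for Fosb (Spearman's rho 0.030 and 0.491), followed by Fosl2 with 0.567. The members move together, so a sign shared by all 10, here or in High-Active mice, is not 10 separate observations. In Fosb the p was 0.0753 for r and 0.154 for rho (permutation test, two-sided, 100000 resamples), and the adjusted p over all tested genes was 0.535. Of 20 such relations none had an adjusted p under 0.1, and 0% of all genes did in either line. The Control values depended on single mice in both directions. Without the 2 mice of the longest distances, 407 and 411, r of Fosb was 0.214 and that of Arc went from 0.477 to 0.12. Without mouse 457, which had the second shortest distance of the Control mice, r was 0.814 for Fosb, 0.674 for Arc and 0.619 for Fos, and without mouse 407 alone it was 0.339, 0.318 and 0.163 in the same order. For Fosb without mouse 457 the unadjusted permutation p was under 0.05, and no adjustment over all genes was computed with single mice left out.
In High-Active mice r lay between 0.027 for Fosb and 0.24 for Arc, with rho of 0.055 and 0.321 (permutation p of r 0.926 and 0.522). Leaving out the 2 mice of the longest distances, 872 and 905, turned it negative in all 10 members, from -0.074 for Fos to -0.269 for Junb. Leaving out mouse 499 instead gave 0.562 for Arc, 0.559 for Nr4a1 and 0.557 for Fosl2. The sign of the relation in High-Active mice thus turned on which mice were left out.

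**Figure D4:**
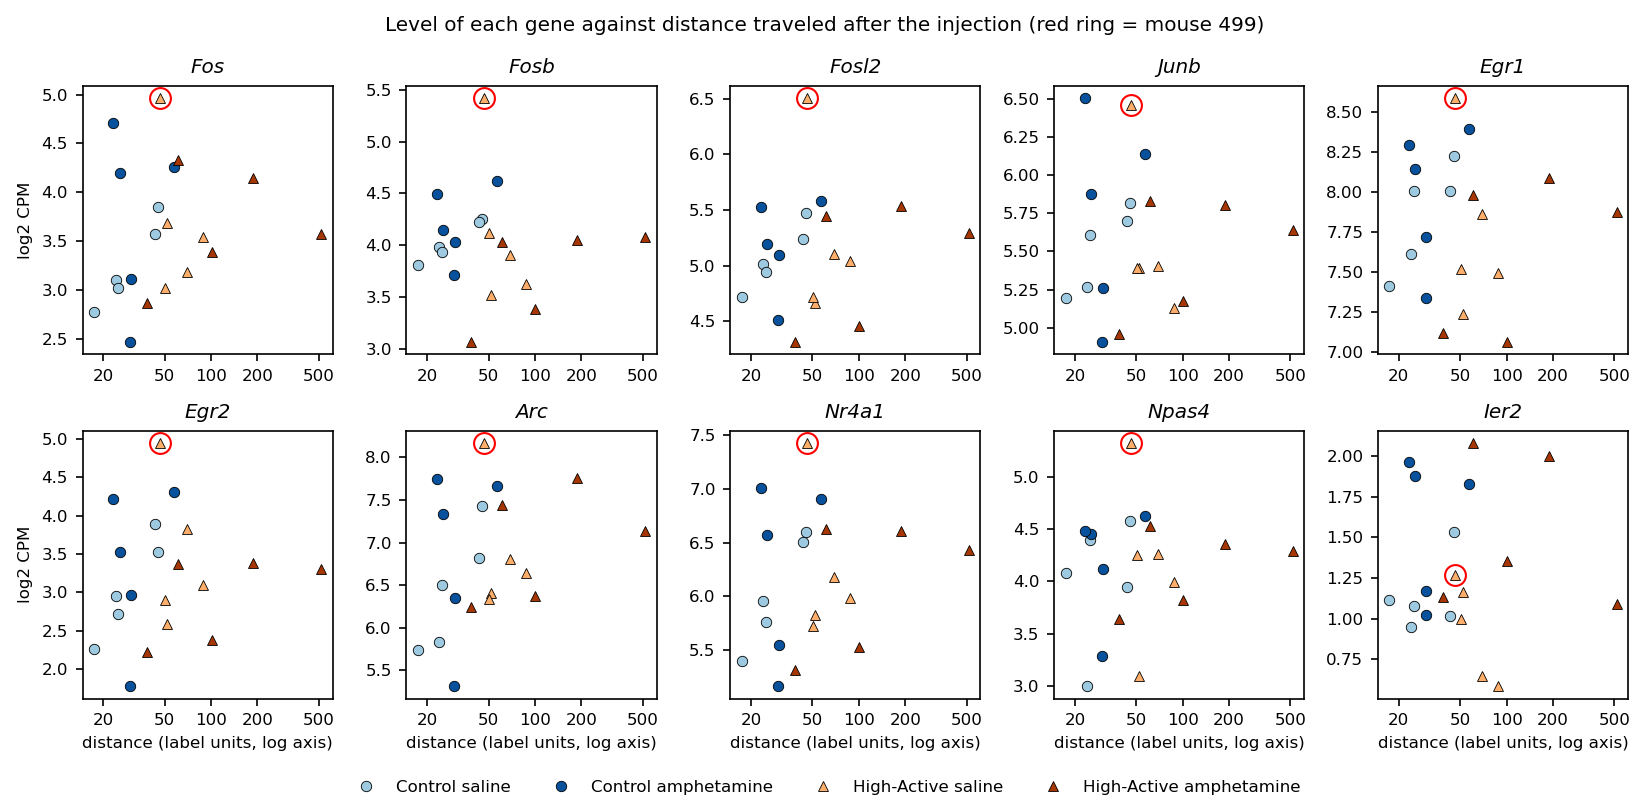
Level of each gene as log2 CPM (vertical axis) against distance traveled after the injection (horizontal axis, label units, log scale) in 20 mice, Control mice as circles and High-Active mice as triangles, lighter after saline. The mouse that went farthest, at 519.2, sits in the middle of most panels, and mouse 499, ringed in red, is at the top of most at 46.41.

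Brothers give a comparison with a shared family background. In 6 families, 4 of them High-Active and 2 Control, the amphetamine minus saline difference in log2 CPM averaged 0.36 ± 0.58 (SD, n = 6 families) for Ier2, higher in 4 of 6 families (exact permutation test of signs, two-sided, p = 0.25). In family order the Ier2 differences were 1.07, 0.49, 0.35 and -0.072 in the High-Active and -0.51 and 0.81 in the Control families. No other member had a smaller p, where 6 families allow none below 0.03125. The mean difference of the other 9 members ran from -0.37 for Egr2 to 0.054 for Arc. Fos was higher in 2 of 6 families and Arc in 4 of 6. The saline value set against mouse 872 was the mean of its brothers 499 and 871, so mouse 499 enters this comparison too. Family members were not always born on the same day, and only 3 families held a pair that was.

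Ier2, the member with the lowest p for amphetamine, was also the one most correlated with the cortical markers. The cortical list had 12 of 14 genes higher after amphetamine at an unadjusted p under 0.05, where 7.06% of all genes were, and 0 of 14 at an adjusted p under 0.1. Nrn1 and Mef2c of this list stand in other lists used here as well. Its summed level was 747.9 to 1547 CPM in Control saline, 1224 to 1677 in Control amphetamine, 492.4 to 786.5 in High-Active saline and 608.3 to 1750 in High-Active amphetamine mice. Within groups Ier2 had r = 0.538 with this sum (rho 0.528, permutation p = 0.0297 and 0.0364, adjusted p over all tested genes 0.212). Without the 2 mice farthest from the median r was 0.495, with the group means not recomputed. An adjusted p under 0.1 was reached by 0 of 10 members and 6.16% of all genes. For the other 9 members r was between 0.116 and 0.409. With the sum as a covariate in the edgeR fit, the log2 change of Ier2 after amphetamine was 0.26 in place of 0.56. The drop was not limited to Ier2, as Arc went from 0.29 to -0.16, Egr1 from 0.0069 to -0.28 and Nr4a1 from 0.060 to -0.19. The sum was itself mostly higher after amphetamine, so the drug and the cortical RNA cannot be told apart in this fit. The part of the cortical markers in the result of Ier2 was not tested beyond it. Mouse 499 had the lowest cortical sum of all 20 mice, 492.4 CPM, beside the highest level of 8 members.

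**Figure D5:**
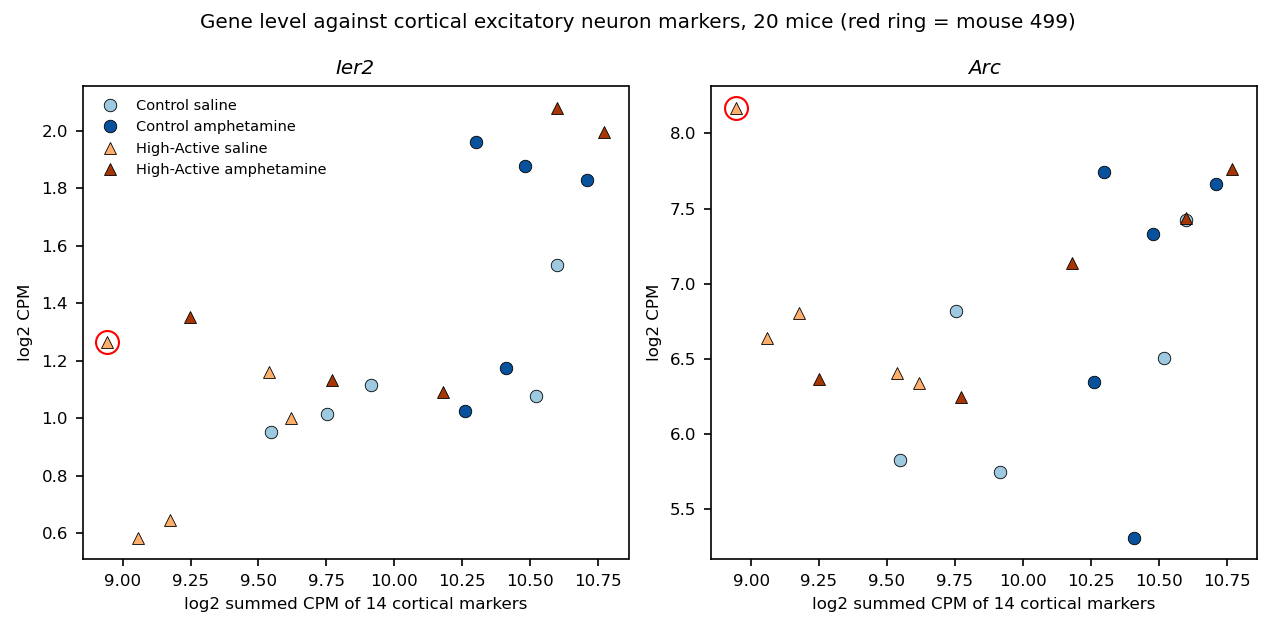
Levels of Ier2 (left) and Arc (right) as log2 CPM (vertical axis) against the summed CPM of 14 cortical excitatory neuron markers on a log2 scale (horizontal axis), 20 mice in 4 groups. The 5 mice with the most Ier2, all given amphetamine, lie at 10.3 or above, as do mice 369, 411 and 883 with less Ier2. Mouse 499 (red ring) is at the far left with the highest Arc.

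Oligodendrocyte markers had correlations of the opposite sign. Their summed level, 3974 to 7322 CPM per mouse over 10 genes, was negatively correlated within groups with all 10 members, with r from -0.36 for Ier2 to -0.66 for Arc (rho -0.26 and -0.63, permutation p 0.11 and 0.00315). None had an adjusted p under 0.1 over all tested genes, the lowest being 0.153 for Fosl2, and 0.575% of all genes did. As the members move together across mice, their shared sign is not 10 separate observations. The share of all genes with a negative r was not counted. For amphetamine 0 of 10 oligodendrocyte markers had an unadjusted p under 0.05, and the part of these cells in the members' spread was not tested. With microglial markers r lay between -0.11 and 0.27, and with endothelial ones between -0.43 and 0.16. For markers of blood r lay between -0.41 and 0.077, for those of choroid plexus between -0.52 and -0.25, and for those of striatal projection neurons between -0.080 and 0.50. The adjusted p of none of these relations was under 0.1, where 0.0135% of all genes passed for microglia, 0% for endothelium, 0.027% for blood, 0.581% for choroid plexus and 7.51% for striatal projection neurons. For amphetamine an unadjusted p under 0.05 was found in 2 of 14 striatal markers, Isl1 (log2 change -0.37) and Tac1 (-0.20), both lower, and 1 of 10 endothelial markers, Pecam1 (-0.15), also lower. It was found in 0 of 10 microglial, 0 of 9 choroid plexus and 0 of 5 blood markers, and no gene of any list had an adjusted p under 0.1.

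Other genes of the pathway were read as whole lists. Of 29 further rapid early genes tested, 4 were higher after amphetamine at p under 0.05 and 0 lower, where 7.06% of all genes were higher and 5.4% lower, with 0 at an adjusted p under 0.1. They were Klf6, a zinc finger factor (1.145-fold, adjusted p = 0.204), Nr4a2, the relative of Nr4a1 known as Nurr1 (1.919-fold, adjusted p = 0.228), Ier3 (1.236-fold, adjusted p = 0.343) and Csrnp1 (1.163-fold, adjusted p = 0.393), all by edgeR. The median log2 change of the 29 was 0.064, against -0.0067 over all genes. Nr4a2 averaged 29.43 CPM in Control saline, 44.25 in Control amphetamine, 14.66 in High-Active saline and 35.87 in High-Active amphetamine mice. The median cortical marker sum had the same order of groups, with 964.4, 1359, 578.5 and 1159 CPM. The part of cortical RNA in the rise of Nr4a2 was not tested.
Of 20 genes listed as delayed activity genes, 5 were higher and 0 lower at p under 0.05, against the same 7.06% and 5.4% of all genes. Gpr22 came first (1.334-fold, adjusted p = 0.166 by edgeR). The growth factor Bdnf was 1.695-fold higher, Ptgs2, which encodes cyclooxygenase-2, 1.497-fold and Rasgrp1 1.141-fold (adjusted p 0.228, 0.263 and 0.314 by edgeR). Nrn1, the fifth, is a cortical marker in the list above. Among upstream factors, Mef2c and Mef2a were higher at p under 0.05 and the CREB coactivator Crtc2 was lower (0.923-fold, adjusted p = 0.299 by edgeR), with 0 at an adjusted p under 0.1. Bdnf is made largely in cortical cells that project to the striatum and Mef2c also marks cortical neurons, and the part of the cortical RNA described above in these values was not tested.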

How the data were processed

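Striatal RNA of 20 male mice, 5 in each of 4 groups, was sequenced over 5 lanes in reads of 100 bases. Per the submitters' processing notes the authors used CASAVA 1.8.2, TopHat2 2.0.10, Bowtie2 2.1.0, SAMtools 0.1.19 and HTSeq 0.6.1 on GRCm38 (mm10). The authors deposited 1 table of raw read counts per gene for each mouse. The rows for reads on no gene (8.169% to 9.553% of reads per mouse), on several genes (1.385% to 1.662%) and without a unique place (5.697% to 7.01%) were left out of library sizes and tests.

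Of the 39179 gene IDs, 37607 had a symbol, and 26116 had a count in some mouse. Genes over 1 CPM in at least 3 mice (14792) were tested with edgeR 4.0.16 in R 4.3.3, by the quasi-likelihood test on 4 group means with TMM scaling, p adjusted by Benjamini-Hochberg over all genes and called under 0.1. Printed log2 CPM and correlations used a prior count of 2. DESeq2 1.42.0, limma 3.58.1, other filters and scalings, a family block, a cortical marker covariate and leaving out each mouse were alternatives. Code was tested on simulated data. Correlations within groups or lines were tested by 100000 permutations, and family differences by the exact permutation of signs. The p of a correlation was adjusted over all tested genes, in place of the planned adjustment over the members' relations alone, and the exact family p is unadjusted.

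The members and all gene lists were chosen with earlier results of these data known. All members are named, from other lists at most 6 genes with the smallest p for amphetamine, and the 10 genes of most similar pattern. A gene of the upstream list is not reported here. Replicates were separate mice, some of them brothers. At a depth of 32388971 to 53710713 counts the number of mice limits precision for all members, and counting error adds most to it in Ier2.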

Additional observations from a re-analysis of the deposited data

Results flagged for a closer look

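In each group of 5 mice and each member, 40 cases in all, the gap between the most extreme mouse and its nearest neighbour was divided by the range of log2 CPM in the group. A ratio above 0.710 marks a mouse far from the others, which chance gives in about 1 of 20 groups. It was passed in 5 cases. In High-Active saline mice, mouse 499 stood above the other 4 with a ratio of 0.793 for Junb, 0.761 for Fosl2, 0.746 for Arc and 0.736 for Nr4a1. These 4 cases are 1 mouse in correlated genes. In Control saline mice, mouse 411 stood above the others for Ier2 with a ratio of 0.719, at 2.847 CPM against 1.885 to 2.117 CPM.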

How the results depend on the processing

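No member's amphetamine effect passed the threshold in either fit where its direction changed, and the cause of the changes was not tested. Correlations with distance with 1 mouse left out were compared by direction alone. Of 240 values of the members' amphetamine effects under the alternatives other than leaving out a mouse, 222 kept their direction and side of the threshold, 16 changed direction and 2, both of Ier2, came to pass. Of 600 with 1 mouse left out, 558 kept both and 42 changed direction. Counts of called genes changed with the test and with the cortical covariate. For amphetamine DESeq2 called 1 member (Ier2, 0.57 on the log2 scale, adjusted p = 0.0714) and 391 genes, and the likelihood-ratio test with robust dispersions 1 member (Ier2, 0.56, adjusted p = 0.0743) and 458 genes, against 0 of each by the quasi-likelihood test. DESeq2 called 6 genes for amphetamine in Control mice, 131 in High-Active mice and 4 for the distance slope. The likelihood-ratio test called 45, 280 and 53 in the same order, and 6 for the interaction. The slope in High-Active mice alone called 1 gene. With the cortical marker covariate the line comparison called 318 genes in place of 2149. Leaving out 1 mouse gave 0 to 339 genes for amphetamine (339 without mouse 415), 0 to 3 in Control mice (3 without 411), 0 to 68 in High-Active mice (68 without 415), 0 to 1 for the interaction and 1381 to 2535 for the line, the lowest without 415. Under the likelihood-ratio test the amphetamine effect was 0.037 for Fosb, 0.14 for Fosl2, 0.079 for Egr2 and 0.074 for Npas4, each below 0 by the quasi-likelihood test, and in High-Active mice it was 0.18 for Fos, 0.13 for Fosl2, 0.088 for Junb, 0.067 for Egr1 and 0.11 for Nr4a1. Npas4 stood at 0.062 with limma-voom and 0.063 with the family block, which changed the direction of no other member and no call. With the cortical covariate Junb stood at -0.091, Egr1 at -0.28, Arc at -0.16 and Nr4a1 at -0.19, and Arc in High-Active mice at -0.64.
With 1 mouse left out, the amphetamine effect ran from -0.24 to 0.080 for Fosb, -0.15 to 0.17 for Fosl2, -0.014 to 0.26 for Junb, -0.053 to 0.15 for Egr1, -0.27 to 0.14 for Egr2, -0.040 to 0.29 for Nr4a1 and -0.11 to 0.19 for Npas4, with the highest value always without mouse 499. In Control mice Npas4 ran from -0.010 to 0.34. In High-Active mice the range was -0.30 to 0.38 for Fos, -0.43 to 0.21 for Fosl2, -0.22 to 0.20 for Junb, -0.25 to 0.15 for Egr1, -0.17 to 0.55 for Arc, -0.31 to 0.27 for Nr4a1 and -0.39 to 0.20 for Npas4. The correlation with distance of Ier2 ran from -0.052 to 0.43 in Control mice. In High-Active mice the correlation ran from -0.13 to 0.34 for Fos, -0.17 to 0.46 for Fosb, -0.0082 to 0.56 for Fosl2, -0.072 to 0.47 for Junb, -0.14 to 0.39 for Egr2, -0.063 to 0.39 for Npas4 and -0.11 to 0.34 for Ier2, and Ier2 stood at -0.27 once values were centred on the treatment groups. The family difference, with 1 family left out, ran from -0.18 to 0.10 for Fos, -0.26 to 0.019 for Fosl2, -0.19 to 0.0077 for Junb, -0.25 to 0.023 for Egr1, -0.10 to 0.28 for Arc and -0.23 to 0.14 for Npas4. In the pairs born on the same day alone it was -0.17 for Arc and -0.24 for Npas4. The labels give no replicate numbers shared between groups, so mice were paired by family alone. Depth matters most for Ier2, which had as few as 51 reads in a mouse.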
